A study of Mus musculus with 8 samples.

Results

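The 37 forkhead genes described here are every gene of the deposited table whose symbol begins with Fox, a letter from a to r and a number, out of 18194 genes with a probe set of their own. Each gene was represented by its brightest probe set, the one with the highest mean over all arrays among probe sets that name a single gene. Of the 37, 36 code for a protein and 1, Foxl2os, is a long noncoding RNA transcribed from the strand opposite Foxl2. Transcripts were measured on 8 Affymetrix arrays of mouse total RNA, in a series on parthenogenetic stem cells as a source for engineered heart muscle. The group PSC (3 arrays) holds parthenogenetic stem cells from C57BL/6 mice. Their oocytes were activated with strontium chloride and grew into blastocysts, from which the cells were taken on day 6, so that both genome copies are maternal. The group EB_PSC (2 arrays) holds embryoid bodies, free aggregates in which such cells differentiated for 15 days. The group ESC (3 arrays) holds embryonic stem cells of the line R1, kept with leukemia inhibitory factor on a feeder layer of mouse embryonic fibroblasts. PSC and ESC therefore differ in genome origin and in line. The labels give a strain for PSC and not for ESC, and feeder use for ESC and not for PSC. Genome origin, line, strain and feeder use thus cannot be told apart in any difference between PSC and ESC. Whether the arrays within a group stem from separate cultures is not said in the labels, and p-values then reflect the spread between these particular samples alone, part of which may be technical.

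Forkhead factors share a winged-helix domain that binds DNA, and the letter after Fox names a subfamily of similar proteins. The Foxa proteins are pioneer factors that open closed chromatin in endoderm, the Foxo proteins are driven out of the nucleus by insulin and Akt signalling, and Foxm1 drives genes of mitosis. In stem cells of the early mouse embryo, Foxd3 is needed to keep the epiblast and Foxh1 carries Nodal signals to DNA as a partner of Smad proteins.

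RefSeq promoter windows of the mouse assembly GRCm38.p6 (250 bases before and 50 after a transcription start) were at hand for 25 of the 37 genes, as 30 windows. The 250 bases before the start are shown for 5 genes on which the comparisons turn, 3 with the largest rises in embryoid bodies (Foxa1, Foxa2, Foxc1) and 2 with the largest deficits in PSC against ESC (Foxd3, Foxp4). Capitals mark the forkhead core, the letters TGTTT on either strand (AAACA on the other), and each sequence runs 5′ to 3′ on the strand of its gene.
Foxa1, chr12:57546112-57546361, minus strand: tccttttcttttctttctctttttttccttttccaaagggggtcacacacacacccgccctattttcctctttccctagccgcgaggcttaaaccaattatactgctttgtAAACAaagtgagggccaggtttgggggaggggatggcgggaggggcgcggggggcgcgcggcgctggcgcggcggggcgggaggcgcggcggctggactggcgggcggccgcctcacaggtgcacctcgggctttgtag
Foxa2, chr2:148046970-148047219, minus strand: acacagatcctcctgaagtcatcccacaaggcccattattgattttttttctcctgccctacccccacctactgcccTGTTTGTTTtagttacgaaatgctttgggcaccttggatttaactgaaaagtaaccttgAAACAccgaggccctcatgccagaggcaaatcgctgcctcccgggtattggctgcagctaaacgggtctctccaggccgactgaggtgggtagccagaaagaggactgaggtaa
Foxc1, chr13:31806396-31806645, plus strand: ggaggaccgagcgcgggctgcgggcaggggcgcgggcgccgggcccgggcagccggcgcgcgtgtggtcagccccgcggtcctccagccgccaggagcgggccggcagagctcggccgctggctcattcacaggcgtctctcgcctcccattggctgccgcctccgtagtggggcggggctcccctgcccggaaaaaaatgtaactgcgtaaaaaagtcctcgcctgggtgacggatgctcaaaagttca
Foxd3, chr4:99656049-99656298, plus strand: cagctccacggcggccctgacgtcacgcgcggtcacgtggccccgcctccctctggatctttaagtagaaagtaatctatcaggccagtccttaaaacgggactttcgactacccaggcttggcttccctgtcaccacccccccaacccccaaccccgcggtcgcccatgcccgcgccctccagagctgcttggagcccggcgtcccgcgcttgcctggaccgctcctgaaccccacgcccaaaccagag
Foxp4, chr17:47924633-47924882, minus strand: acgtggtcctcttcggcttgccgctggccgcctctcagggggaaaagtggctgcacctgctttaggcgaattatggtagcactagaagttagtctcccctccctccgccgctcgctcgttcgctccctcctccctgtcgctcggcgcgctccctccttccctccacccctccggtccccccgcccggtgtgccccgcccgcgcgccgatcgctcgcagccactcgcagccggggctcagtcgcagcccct

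The core stands once before Foxa1, on the reverse strand, with its first base 139 bases before the start. There it is part of the full forkhead motif TGTTTAC (read as GTAAACA), which 1 of the 30 forkhead windows and 3.65% of the 32851 RefSeq windows of this length hold. Foxa2 has 3 windows, and the one shown has the most cores, 3, of which the first 2 overlap. The windows of Foxc1, Foxd3 and Foxp4 hold no core. Over the family 15 of the 30 windows hold the core, against 50.5% of all windows, and 3 hold the letters TATAAA, against 13.6%. The forkhead windows were rich in G and C, with a median of 63.5% against 52.7% over all windows, and a median of 22.5 CpG pairs against 7. A match of letters describes the window and shows no binding.

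Values are log2 signals as the authors deposited them, and levels are compared within a gene only. A group mean below 5.44, the median of all deposited values, is called dim, because differences of dim probe sets can be compressed on this scale. If either of 2 compared groups is dim, the difference is given in log2 units as fitted and is not turned into a fold. In these terms 25 of the 37 genes reached the limit in at least 1 group and 12 were dim in all 3. The 12 are Foxa3, Foxb1, Foxc2, Foxd1, Foxd2, Foxd4, Foxf2, Foxi1, Foxj1, Foxl2os, Foxn1 and Foxp3. Among them Foxn1 directs the thymus epithelium, Foxi1 the inner ear and Foxp3 the regulatory T cell. In PSC 21 genes of the family reached the limit, in ESC 20 and in EB_PSC 23, which is 56.8%, 54.1% and 62.2% of the family against 64%, 63.4% and 64.1% of all genes. Those above it in all 3 groups number 18 and include every measured Foxo and Foxk gene, Foxj2, Foxj3, Foxm1, Foxn2, Foxn3, Foxn4, Foxp1 and Foxp4. Foxa1, Foxa2, Foxc1 and Foxp2 reached it in EB_PSC and in neither stem cell group.

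**Figure D1:**
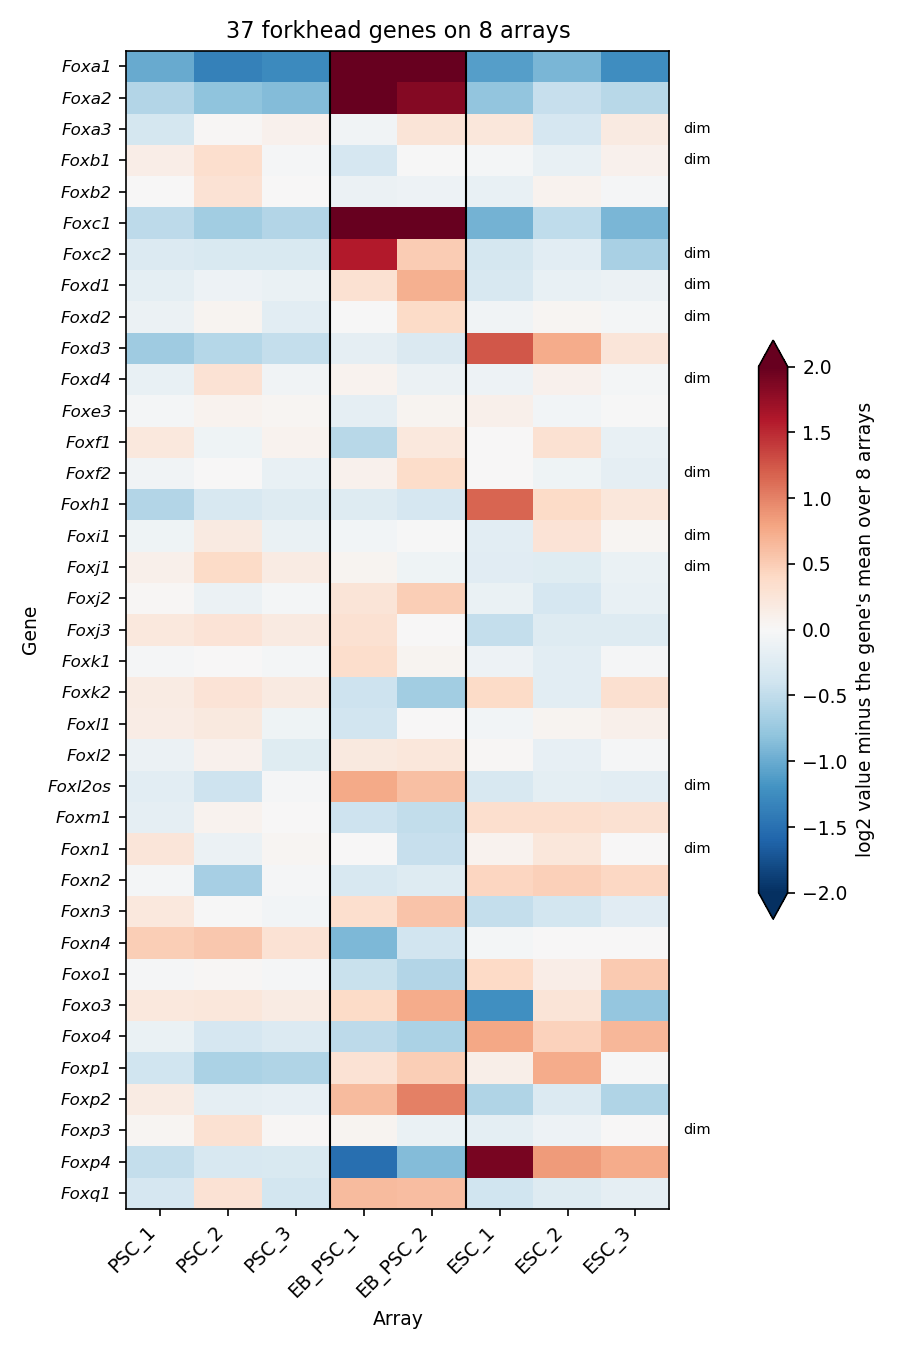
Each row is 1 of the 37 forkhead genes and each column 1 of the 8 arrays, and the colour is the log2 value minus the gene's mean over the 8 arrays (red above, blue below, ends of the scale at 2 log2 units). The darkest red lies in both EB_PSC columns of Foxa1, Foxa2 and Foxc1 and in the column of ESC array 1 for Foxp4, the darkest blue in that of EB_PSC array 1 for Foxp4, and rows marked dim stay below 5.44 in all 3 groups.

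The arrays of a group were alike, with Pearson correlations of 0.991 to 0.995 over the probe sets, which are no independent replicates. Between PSC and ESC arrays they were 0.978 to 0.986, and between EB_PSC arrays and the others 0.925 to 0.943. All 10 listed pluripotency markers were above the dim limit in each group, with a mean level of 11.6 to 11.8 in PSC, 11.96 to 12.2 in ESC and 9.50 to 9.63 in EB_PSC. The cardiomyocyte list had a mean level of 7.89 and 8.55 in EB_PSC against 5.00 to 5.07 in PSC, and the endoderm and liver list 7.44 and 7.72 against 5.31 to 5.44. Embryonic fibroblast markers, which feeder cells would also give, averaged 5.56 to 5.68 in PSC, 6.25 to 6.58 in ESC and 8.11 to 8.33 in EB_PSC. Control probe sets at the 3′ end exceeded those at the 5′ end by -0.09 to 0.0023 in the PSC and EB_PSC arrays and 0.08 to 0.17 in ESC for Gapdh, and 0.69 to 1.54 over all arrays for Actb.

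The first comparison set undifferentiated PSC against ESC, which have a maternal and a paternal genome. Of the 37 forkhead genes 12 passed the test (limma, Benjamini-Hochberg adjusted p below 0.05), which is 32.4% of them against 20.8% of all genes. The 7 that were lower in PSC were Foxp4, Foxd3, Foxh1, Foxo4, Foxp1, Foxn2 and Foxm1, and all 7 were above the dim limit in both groups. The background of lower calls was 11.7%. The 5 that were higher were Foxj3, Foxn4, Foxn3, Foxp2 and Foxj1, against a background of 9.07%, and Foxp2 and Foxj1 were dim in both groups. The PSC and ESC arrays did not overlap for 15 of the 37 genes, 40.5%, against 36.5% of all genes. The median difference of the family was 0.03 against 0.01 for all genes. Leaving out 1 array left between 7 and 11 calls, beside 13.7% to 22.8% of all genes, with the 7 found without ESC array 1 (15.4% of all genes). Of the 5 higher calls 1 was left without PSC array 2 and 1 without ESC array 1, and 2 without PSC array 1, while 6 or 7 members were called lower in each of these fits. In bulk samples such as these, fewer cells of a type and less RNA per cell cannot be told apart. The ESC arrays also carried more signal of the fibroblast list (8 of 14 markers lower in PSC, 0 higher, 6 of 14 dim in PSC and 3 in ESC), and its part in the forkhead differences was not tested.

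The second comparison asked what changed as PSC differentiated for 15 days. In embryoid bodies 16 of the 37 genes passed the test, 43.2% of them, beside 43.9% of all genes, so the family was called about as often as the array as a whole. The directions were 11 higher, 29.7% of the family against 18.8% of all genes, and 5 lower, 13.5% against 25.2%. The rises were led by Foxa1, Foxa2 and Foxc1 and included the dim Foxc2, Foxl2os and Foxd1. The falls were those of Foxn4, Foxp4, Foxk2, Foxo1 and Foxm1. EB_PSC and PSC arrays did not overlap for 24 genes, 64.9%, against 62.8% of all. In 16 of them EB_PSC lay above (43.2% against 25.1%) and in 8 below (21.6% against 37.8%). The median difference was 0.10 for the family and -0.09 for all genes. Normalizing again by cyclic loess, which moved the median of all genes to -0.01, gave 15 higher and 3 lower members in place of 11 and 5. In that fit 42.6% of all genes were called. Most markers of cardiomyocytes (11 of 12 higher, 0 lower), endothelium (7 of 9, 1 lower), endoderm and liver (6 of 10, 1 lower) and fibroblasts (11 of 14, 1 lower) rose in the same arrays. Of all genes 18.8% were called higher and 25.2% lower. The part of these cell types in the forkhead differences was not tested.

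The third comparison, of embryoid bodies with ESC, shares its EB_PSC arrays with the second and its ESC arrays with the first and is no independent evidence for either. In it 21 of the 37 genes passed, 56.8% against 44.9% of all genes. Of these 12 were higher, beside 19.3% of all genes, and 9 lower, beside 25.6%. Arrays did not overlap for 25 genes, 67.6%, against 61.1% of all. The median difference was 0.07 for the family and -0.07 for all genes.

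**Figure D2:**
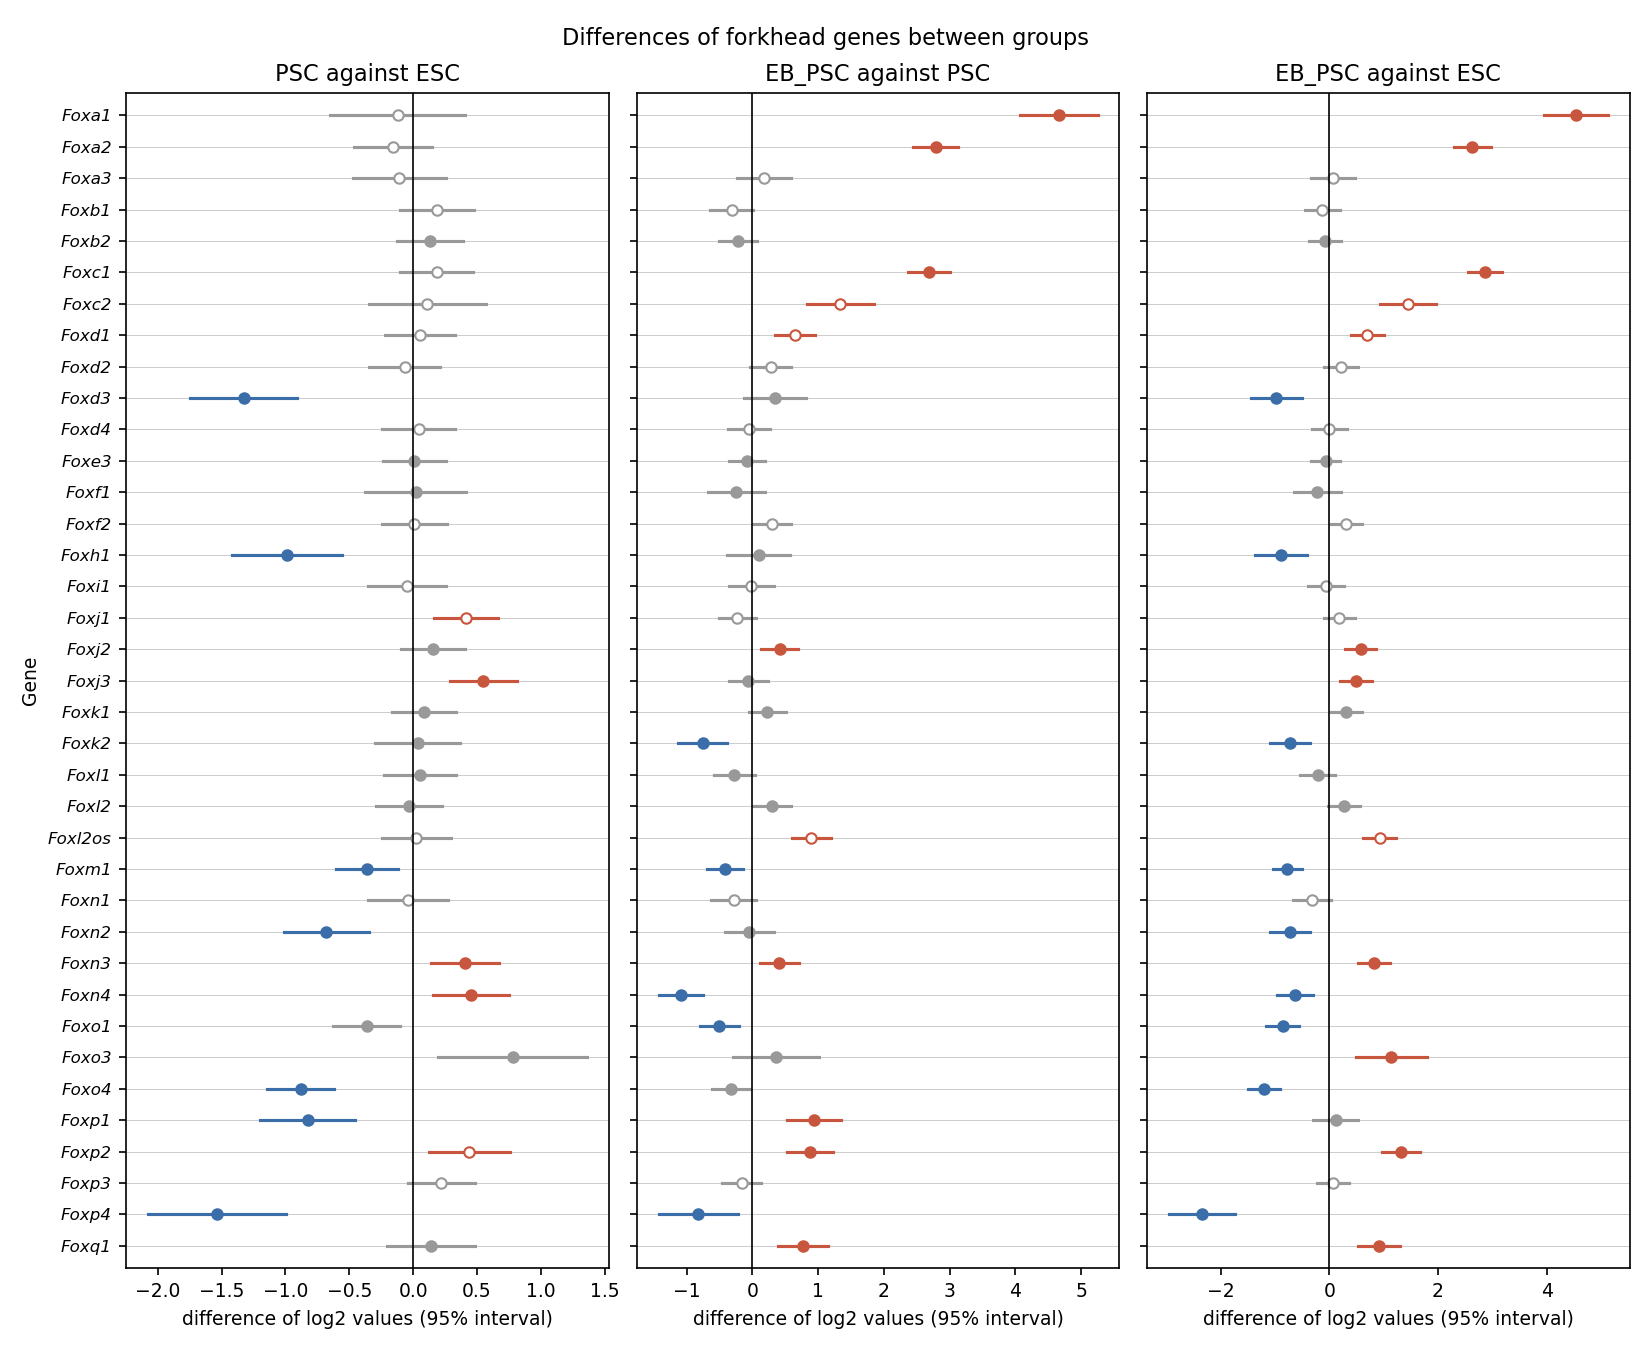
Points are the differences in log2 units of the 37 forkhead genes in the 3 comparisons, with 95% intervals from the limma fit, red where called higher, blue where called lower and grey where not called, and open where both compared groups are dim. Foxa1, Foxa2 and Foxc1 lie farthest right in both embryoid body panels and Foxp4 farthest left in the panels against ESC.

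Across the 3 comparisons 23 of the 37 genes were called at least once, 62.2% against 56.1% of all genes, and 14 in none. Of the 23, 19 were above the dim limit in at least 1 group, and these are described array by array below in the order of their roles. The other 4 (Foxc2, Foxd1, Foxj1, Foxl2os) were dim throughout.

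The endoderm pioneers Foxa1 and Foxa2 rose in embryoid bodies from dim levels in both stem cell groups. Foxa1 read 4.14, 3.80 and 3.89 on the PSC arrays, 7.96 and 9.25 on the EB_PSC arrays and 4.05, 4.24 and 3.91 on the ESC arrays. Both EB_PSC arrays stood far above the other 6, with 1.29 log2 units between them. The difference from PSC was 4.66 ± 0.27 (limma adjusted p = 1.29e-08) and from ESC 4.54 ± 0.27 (1.52e-08 by the same test), with both stem cell groups dim. Foxa2, which also marks the node, notochord and floor plate, read 4.92, 4.70 and 4.64 on the PSC arrays, 7.73 and 7.34 on the EB_PSC arrays and 4.72, 5.05 and 4.95 on the ESC arrays. Its EB_PSC arrays again did not overlap the rest, and the difference from PSC was 2.79 ± 0.16 (limma adjusted p = 9.08e-09). Foxa3, the liver member of the subfamily, was dim in all groups and differed from PSC by 0.17 ± 0.19 (limma adjusted p = 0.498), with arrays that overlapped. Between the stem cell groups no Foxa gene was called, with PSC minus ESC at -0.12 for Foxa1, -0.16 for Foxa2 and -0.11 for Foxa3 (limma adjusted p between 0.506 and 0.791).

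Among endoderm and liver genes that Foxa proteins are known to bind, the median in embryoid bodies against PSC was 0.41, against -0.09 for all genes. Of 16 measured genes 8 rose and 0 fell, beside 18.8% and 25.2% of all genes. The largest were Afp, the fetal albumin-like protein of yolk sac and liver (6.53 ± 0.30, limma adjusted p = 1.11e-09), Sox17, a factor of definitive and extraembryonic endoderm (6.12 ± 0.14, 2.4e-12), and Gata6 (2.55 ± 0.15, 1.49e-08). The PSC and ESC means of all 3 were dim. The list had 0 calls in either direction between PSC and ESC, beside 9.07% higher and 11.7% lower of all genes. Its 16 genes had a median of 0.0048 there. At an unadjusted p below 0.05, 1 of the 16 differed there. Afp, Sox17, Ttr, Alb, Apoa1, Apob and Hnf4a are also in the endoderm and liver marker list given above. The lists are therefore no separate observations.

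The Foxc factors, which pattern somites, vessels and heart, rose with differentiation. Foxc1 read 4.27, 4.09 and 4.20 on the PSC arrays, 6.81 and 6.93 on the EB_PSC arrays and 3.85, 4.28 and 3.88 on the ESC arrays. No EB_PSC array overlapped the others, and the difference was 2.68 ± 0.15 from PSC and 2.87 ± 0.15 from ESC (limma adjusted p = 7.44e-09 and 3.54e-09). A second probe set of Foxc1 rose by 1.36 against PSC but was dim in all 3 groups. Foxc2, its closest relative, stayed below the dim limit as a group mean and read 3.88, 3.86 and 3.85 on the PSC arrays, 5.74 and 4.66 on the EB_PSC arrays and 3.80, 3.94 and 3.50 on the ESC arrays. Only EB_PSC array 1 was above 5.44. The difference from PSC was 1.34 ± 0.24 (limma adjusted p = 0.000399), and 0.80 without that array, which leaves 1 EB_PSC array. The Foxf genes of gut and lung mesenchyme were not called, at -0.24 ± 0.20 for Foxf1 and 0.30 ± 0.13 for Foxf2 against PSC (limma adjusted p = 0.373 and 0.082). The second, dimmer probe set of Foxf1 moved the other way, by 1.19 (limma adjusted p = 0.000159 over all probe sets), and the mean of both gave 0.47 (0.00559). Without EB_PSC array 2, a fit that keeps 1 EB_PSC array, the main set of Foxf1 gave -0.63.

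Foxq1, a factor of epithelia known from the satin coat of mice that lack it, read 5.30, 5.93 and 5.27 on the PSC arrays, 6.28 and 6.26 on the EB_PSC arrays and 5.24, 5.38 and 5.45 on the ESC arrays. The EB_PSC arrays were nearly equal and above the rest, while PSC array 2 stood above the other PSC arrays. Foxq1 was 1.71-fold higher than in PSC (0.77 ± 0.18, limma adjusted p = 0.00295). Its second probe set, which may cross-hybridise according to its identifier, rose by 3.39 from a dim level, and the mean of both gave 2.08 (limma adjusted p = 9.15e-07). Foxd1, a gene of kidney stroma, and Foxl2os rose by 0.65 and 0.90 against PSC while dim in every group (limma adjusted p = 0.00205 and 0.000129). Foxl2, the ovarian factor whose promoter window overlaps that of Foxl2os on the other strand, differed by 0.31 ± 0.13 (limma adjusted p = 0.0824), with EB_PSC arrays above all PSC arrays.

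Genes of the lateral and paraxial mesoderm, where Foxf and Foxc factors act, gave 8 higher and 3 lower of 20 measured in embryoid bodies against PSC, with a median of 0.19. Of all genes 18.8% were higher and 25.2% lower, with a median of -0.09. Hand2, a heart and limb factor, rose by 4.97 ± 0.14 (limma adjusted p = 2.3e-11), Cxcl12, a chemokine, by 3.48 ± 0.13 (1.9e-10) and Pdgfra, a receptor of mesoderm, by 2.86 ± 0.18 (2.93e-08). The 3 that fell are parts of Hedgehog signalling: Gli1 (-1.97 ± 0.19), Gli2 (-1.50 ± 0.12) and Ptch1 (-0.74 ± 0.14), with limma adjusted p of 1.93e-06, 2.46e-07 and 0.00059. Between PSC and ESC 0 were higher and 2 lower, Bmp4 (-1.60 ± 0.17, limma adjusted p = 2.95e-05) and Gli1 (-0.79 ± 0.17, 0.00516). Of all genes 9.07% were higher and 11.7% lower there.

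**Figure D3:**
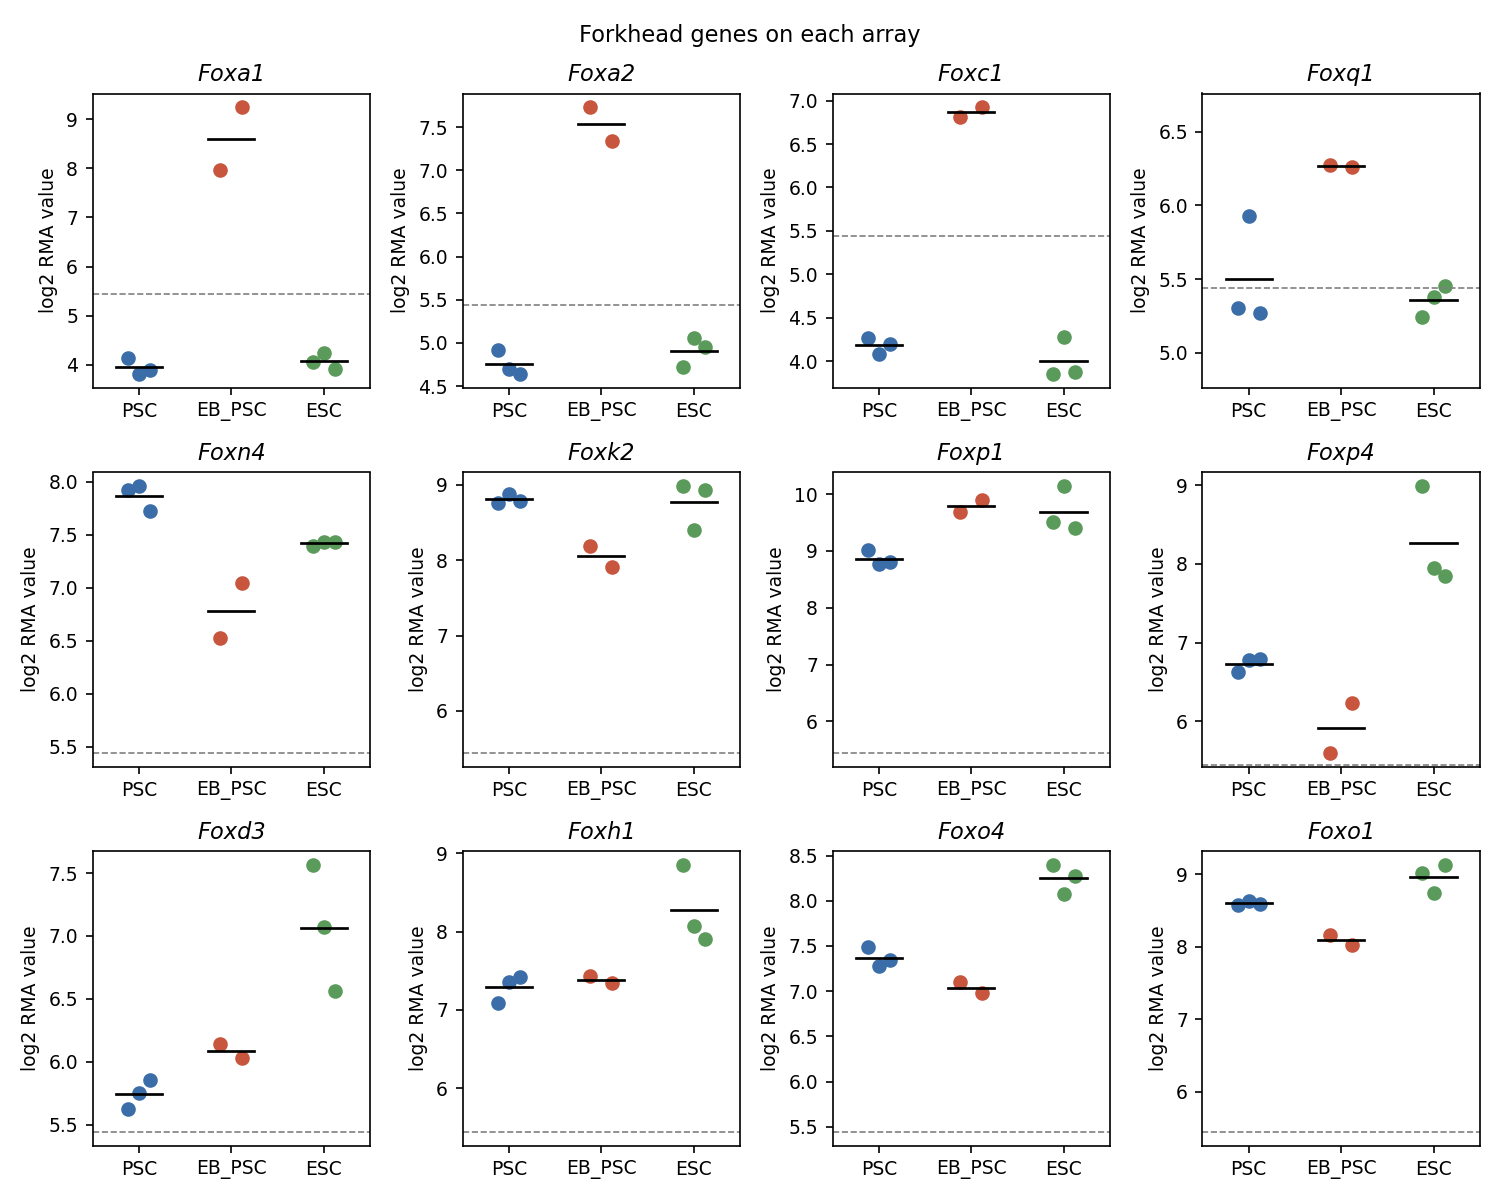
Log2 values of 12 forkhead genes on each array (points) by group, with the group mean as a black bar and the dim limit of 5.44 as a dashed line; the vertical axes differ between panels and none starts at 0. The EB_PSC points of Foxa1, Foxa2 and Foxc1 lie far above both stem cell groups, and the ESC points of Foxd3, Foxh1, Foxo4 and Foxp4 lie above all PSC and EB_PSC points.

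Foxd3 and Foxh1, the members tied to the pluripotent epiblast, were lower in PSC than in ESC and were not called between embryoid bodies and PSC. Foxd3 read 5.62, 5.75 and 5.86 on the PSC arrays, 6.14 and 6.03 on the EB_PSC arrays and 7.57, 7.07 and 6.56 on the ESC arrays. The 3 ESC arrays were spread over 1.00 log2 unit, and the lowest was still above all PSC and EB_PSC arrays. In PSC Foxd3 was 2.50-fold lower (-1.32 ± 0.19, limma adjusted p = 0.000346), while embryoid bodies differed from PSC by 0.35 ± 0.22 (0.225 by the same test, 95% interval -0.12 to 0.81). Fitting those groups alone, without the more spread ESC arrays, gave the same difference with an adjusted p of 0.0437. Foxh1 read 7.09, 7.36 and 7.42 on the PSC arrays, 7.43 and 7.34 on the EB_PSC arrays and 8.85, 8.07 and 7.90 on the ESC arrays. It was highest on ESC array 1, and all ESC arrays were above the other 5. The difference of PSC from ESC was -0.99 ± 0.20 (1.98-fold lower, limma adjusted p = 0.00339), and that of embryoid bodies from PSC 0.10 ± 0.22 (0.768, 95% interval -0.39 to 0.58). Of the 3 probe sets of Foxh1, 2 were called lower than in ESC in both PSC and embryoid bodies. The third, also bright, was not called, at -0.39 in PSC and -0.34 in embryoid bodies (limma adjusted p = 0.0551 and 0.0797 over all probe sets). In the same arrays all 10 pluripotency markers fell in embryoid bodies against PSC, by a median of -2.03, while between PSC and ESC 2 were lower and 1 higher. Of all genes 25.2% were lower in embryoid bodies than in PSC. Between PSC and ESC 11.7% of all genes were lower and 9.07% higher.

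Of 15 measured partners of Foxh1 and targets of Nodal, 1 was higher and 3 lower in PSC than in ESC. Of all genes 9.07% were higher and 11.7% lower. Lefty2, a Nodal inhibitor and direct target, was the lowest at -1.51 ± 0.15 (limma adjusted p = 1.64e-05), followed by the activin receptor gene Acvr2b (-0.66 ± 0.14, 0.00438) and Smad4 (-0.43 ± 0.14, 0.0395). The receptor gene Acvr1b was higher (0.40 ± 0.11, limma adjusted p = 0.0243). In embryoid bodies 5 were higher and 6 lower than in PSC, beside 18.8% and 25.2% of all genes. The directions fell apart by gene. The mesendoderm factors Eomes and Mixl1 rose by 3.37 ± 0.19 and 1.87 ± 0.13 (limma adjusted p = 7.15e-09 and 8.72e-08). Lefty1, Gdf3 and Tdgf1, all ligands or modulators of the pathway, fell by 2.21 ± 0.19, 2.02 ± 0.14 and 1.56 ± 0.14 (limma adjusted p = 5.8e-07, 8.72e-08 and 9.37e-07).

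The Foxo genes, which switch on cell cycle arrest and stress defence when insulin signalling is low, did not move as 1 group. Foxo4 read 7.49, 7.28 and 7.34 on the PSC arrays, 7.10 and 6.98 on the EB_PSC arrays and 8.40, 8.07 and 8.28 on the ESC arrays. All ESC arrays were above all others, and PSC were 1.84-fold lower (-0.88 ± 0.12, limma adjusted p = 0.000211). Foxo4 lies on chromosome X. With both genome copies maternal, PSC carry no Y chromosome, while the labels give no sex for ESC. The part of X copy number was not tested. Embryoid bodies differed from PSC by -0.33 ± 0.14 (limma adjusted p = 0.0666), with arrays that did not overlap, and were 2.31-fold below ESC (6.31e-06 by the same test). Averaged over its probe sets Foxo4 differed from ESC by -0.54 in PSC and -0.66 in embryoid bodies (limma adjusted p = 0.0021 and 0.000252).

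Foxo1, a main target of Akt in liver and other tissues, read 8.58, 8.63 and 8.58 on the PSC arrays, 8.16 and 8.02 on the EB_PSC arrays and 9.01, 8.74 and 9.13 on the ESC arrays. The groups did not overlap, with ESC highest and EB_PSC lowest. Foxo1 fell by 0.50 ± 0.14 in embryoid bodies against PSC (limma adjusted p = 0.00871) and by 0.33 (0.0465) under cyclic loess. Without EB_PSC array 2 the fall was 0.43. PSC differed from ESC by -0.36 ± 0.12, just outside the threshold (limma adjusted p = 0.0516); without ESC array 2 the value was -0.47 (0.0114), and with the mean of its probe sets -0.34 (0.0269). Foxo3, a regulator of stem cell quiescence, read 9.28, 9.30 and 9.24 on the PSC arrays, 9.46 and 9.81 on the EB_PSC arrays and 7.85, 9.33 and 8.30 on the ESC arrays. Here ESC array 2 stood with the PSC arrays and apart from the other 2 ESC arrays. PSC minus ESC was 0.78 ± 0.27 (limma adjusted p = 0.0576), 1.20 (0.00021) without that array and 0.89 (0.0433) after repeated quantile normalization. Embryoid bodies were 2.20-fold above ESC (1.14, limma adjusted p = 0.00668), and the difference was 0.97 without EB_PSC array 2. A second bright probe set of Foxo3 had a difference of 0.03 in that comparison (limma adjusted p = 0.904 over all probe sets), and the mean over its probe sets gave 0.20 (0.317).

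Of 16 measured genes in the list of Foxo regulators, insulin and PI3K-Akt signalling, 4 were higher and 4 lower in PSC than in ESC. Of all genes 9.07% were higher and 11.7% lower. The receptor genes Igf1r (0.73 ± 0.13, limma adjusted p = 0.00114) and Insr (0.41 ± 0.13, 0.0361) were higher, as was the kinase gene Pdpk1 (0.53 ± 0.12, 0.00719). Pik3ca, the catalytic subunit of PI3K, was lower (-1.01 ± 0.11, limma adjusted p = 3.06e-05), and so were the deacetylase gene Sirt1 (-0.50 ± 0.14, 0.0193) and Akt2 (-0.39 ± 0.11, 0.0266). In embryoid bodies 6 rose and 4 fell against PSC, beside 18.8% and 25.2% of all genes. Irs1, the adaptor of the insulin receptor, rose by 4.06 ± 0.13 (limma adjusted p = 3.01e-11), the regulatory subunit Pik3r1 by 1.33 ± 0.13 (2.94e-06) and Insr by 1.32 ± 0.14 (5.22e-06). The kinase gene Sgk1, the deubiquitinase gene Usp7 and the exportin gene Xpo1 fell by 1.07 ± 0.15, 0.85 ± 0.12 and 0.69 ± 0.12 (limma adjusted p = 4.99e-05, 8.02e-05 and 0.000325). The list also holds Pdk1, the symbol of a pyruvate dehydrogenase kinase.

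Of 22 Foxo target genes, all measured, 5 were higher and 3 lower in PSC than in ESC, and 5 were higher and 8 lower in embryoid bodies than in PSC. Over all genes these shares were 9.07% and 11.7% in the former and 18.8% and 25.2% in the latter. Ccng2, a cyclin of arrested cells, was 1.58 ± 0.12 higher in PSC (limma adjusted p = 1.17e-06) and Txnip, which inhibits thioredoxin, 1.09 ± 0.12 (4.4e-05). The stress gene Gadd45b was 1.01 ± 0.11 higher (limma adjusted p = 4.88e-05) and the pluripotency-linked factor Klf2 was lower (-0.93 ± 0.16, 0.00129). With differentiation Klf2, Trim63 and Txnip fell by 2.26 ± 0.18, 1.73 ± 0.17 and 1.69 ± 0.14 (limma adjusted p = 3.14e-07, 1.99e-06 and 3.32e-07). The sestrin gene Sesn3 rose by 1.10 ± 0.13 and the cell death gene Bcl2l11 by 0.65 ± 0.16 (limma adjusted p = 1.18e-05 and 0.0047). The medians of the list were 0.0025 between PSC and ESC and 0.04 in embryoid bodies against PSC, beside 0.0064 and -0.09 for all genes.

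The Foxp genes encode repressors that pair with each other, and their members took different courses. Foxp4, active in heart, lung and brain, read 6.62, 6.78 and 6.79 on the PSC arrays, 5.59 and 6.23 on the EB_PSC arrays and 8.99, 7.95 and 7.85 on the ESC arrays. The groups did not overlap, ESC array 1 was 1.04 above the next, and EB_PSC array 1 was the lowest of the 8. Against ESC it was 2.89-fold lower in PSC (-1.53 ± 0.25, limma adjusted p = 0.000782) and 5.11-fold lower in embryoid bodies (-2.35 ± 0.28, 1.09e-05), the largest fold of any forkhead gene above the dim limit in both groups. The fall from PSC to embryoid bodies was -0.82 ± 0.28 (limma adjusted p = 0.0291). This call was lost without any 1 of PSC arrays 1, 2 or 3 (-0.88 to -0.79, adjusted p between 0.0515 and 0.0793). Without EB_PSC array 1 the difference was -0.50. Of the 3 probe sets of Foxp4, 2 were called lower in PSC than in ESC and 3 lower in embryoid bodies than in ESC, while only the brightest was called between embryoid bodies and PSC, the other 2 having differences of -0.36 and 0.17. Their mean gave -0.34 there (limma adjusted p = 0.13) and -1.50 for embryoid bodies against ESC (1.81e-05), and cyclic loess also ended the first call (-0.67, 0.0708).

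Foxp1, which has isoforms that differ between stem cells and differentiated cells, read 9.01, 8.77 and 8.80 on the PSC arrays, 9.69 and 9.90 on the EB_PSC arrays and 9.51, 10.14 and 9.40 on the ESC arrays. PSC lay below all other arrays, and EB_PSC and ESC overlapped. Against ESC, PSC were 1.77-fold lower (-0.82 ± 0.17, limma adjusted p = 0.00424), and embryoid bodies were 1.91-fold above PSC (0.94 ± 0.19, 0.00129). The difference of embryoid bodies from ESC was 0.11 ± 0.19 (limma adjusted p = 0.693). Foxp1 has 8 probe sets, and they divide. In PSC against ESC 6 of the 8 were called lower and 0 higher. In embryoid bodies against PSC 2 were called higher, the brightest and one that was dim in both stem cell groups (1.36), and the other 6 ranged from -0.26 to 0.26 with none called. Averaged over its probe sets Foxp1 differed by 0.30 from PSC (limma adjusted p = 0.053) and by -0.38 from ESC (0.0158).

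Foxp2, best known from speech and from brain and lung development, read 5.17, 4.82 and 4.84 on the PSC arrays, 5.63 and 6.00 on the EB_PSC arrays and 4.39, 4.72 and 4.39 on the ESC arrays. Both EB_PSC arrays were above 5.44 and above all stem cell arrays, which were dim. The differences were 0.88 ± 0.16 from PSC and 1.32 ± 0.16 from ESC (limma adjusted p = 0.000612 and 1.67e-05). Between the dim stem cell groups PSC was higher by 0.44 ± 0.15 (limma adjusted p = 0.0494), a call lost without any 1 of PSC arrays 1, 2 or 3 or ESC arrays 1 or 3 (0.33 to 0.50, adjusted p between 0.0706 and 0.211). It was also lost under both renormalizations, the trended prior, the replicate block and a test of every probe set (adjusted p between 0.051 and 0.0624). Of the 6 probe sets of Foxp2, 3 were called higher in embryoid bodies in either comparison, and the mean of the 6 gave 0.45 against PSC, 0.63 against ESC and 0.18 for PSC against ESC (limma adjusted p = 0.0064, 0.000634 and 0.266). Foxp3 was dim, at most 4.36 on any array, and the lymphocyte list gave 1 call in 6 measured genes in embryoid bodies.

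Foxk2, which binds the Bap1 deubiquitinase and Dvl proteins, read 8.76, 8.88 and 8.78 on the PSC arrays, 8.19 and 7.91 on the EB_PSC arrays and 8.99, 8.40 and 8.93 on the ESC arrays. Both EB_PSC arrays were below all others. The fall was 1.69-fold against PSC (-0.76 ± 0.17, limma adjusted p = 0.00255) and 1.65-fold against ESC (-0.72 ± 0.17, 0.00334). Its 5 probe sets disagreed: 2 fell against PSC, while the second brightest had a difference of 0.37 (limma adjusted p = 0.0504 over all probe sets). Against ESC 1 of the 5 was called lower and 1 higher, the second brightest (0.41, limma adjusted p = 0.0291 over all probe sets). The mean of the 5 gave -0.19 against PSC and -0.02 against ESC (limma adjusted p = 0.167 and 0.912), so that neither call held. Foxk1, its close relative, differed from PSC by 0.23 ± 0.13 (limma adjusted p = 0.187) and by 0.37 (0.025) under cyclic loess. Against ESC its embryoid body difference was 0.31 ± 0.13 (limma adjusted p = 0.0698), with 0.34 (0.034) after repeated quantile normalization and 0.48 (0.00544) under cyclic loess. Its second brightest probe set was called lower in embryoid bodies, with -0.87 against PSC and -0.51 against ESC (limma adjusted p = 0.000607 and 0.018 over all probe sets). Of 18 genes for corepressors and partners of Foxp and Foxk proteins, 0 were higher and 2 lower in PSC than in ESC (Gatad2a, -0.78 ± 0.20, and Mta3, -0.61 ± 0.14, both of the NuRD complex, limma adjusted p = 0.0158 and 0.00825). Of all genes 9.07% were called higher and 11.7% lower there. In embryoid bodies 0 rose and 11 fell against PSC, beside 18.8% and 25.2% of all genes. The median of the list was -0.78 against -0.09 for all genes. The largest falls were those of Dvl2 (-1.68 ± 0.19, limma adjusted p = 6.91e-06), Gatad2a (-1.36 ± 0.23, 0.000254) and Mta3 (-1.22 ± 0.16, 2.97e-05).

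**Figure D4:**
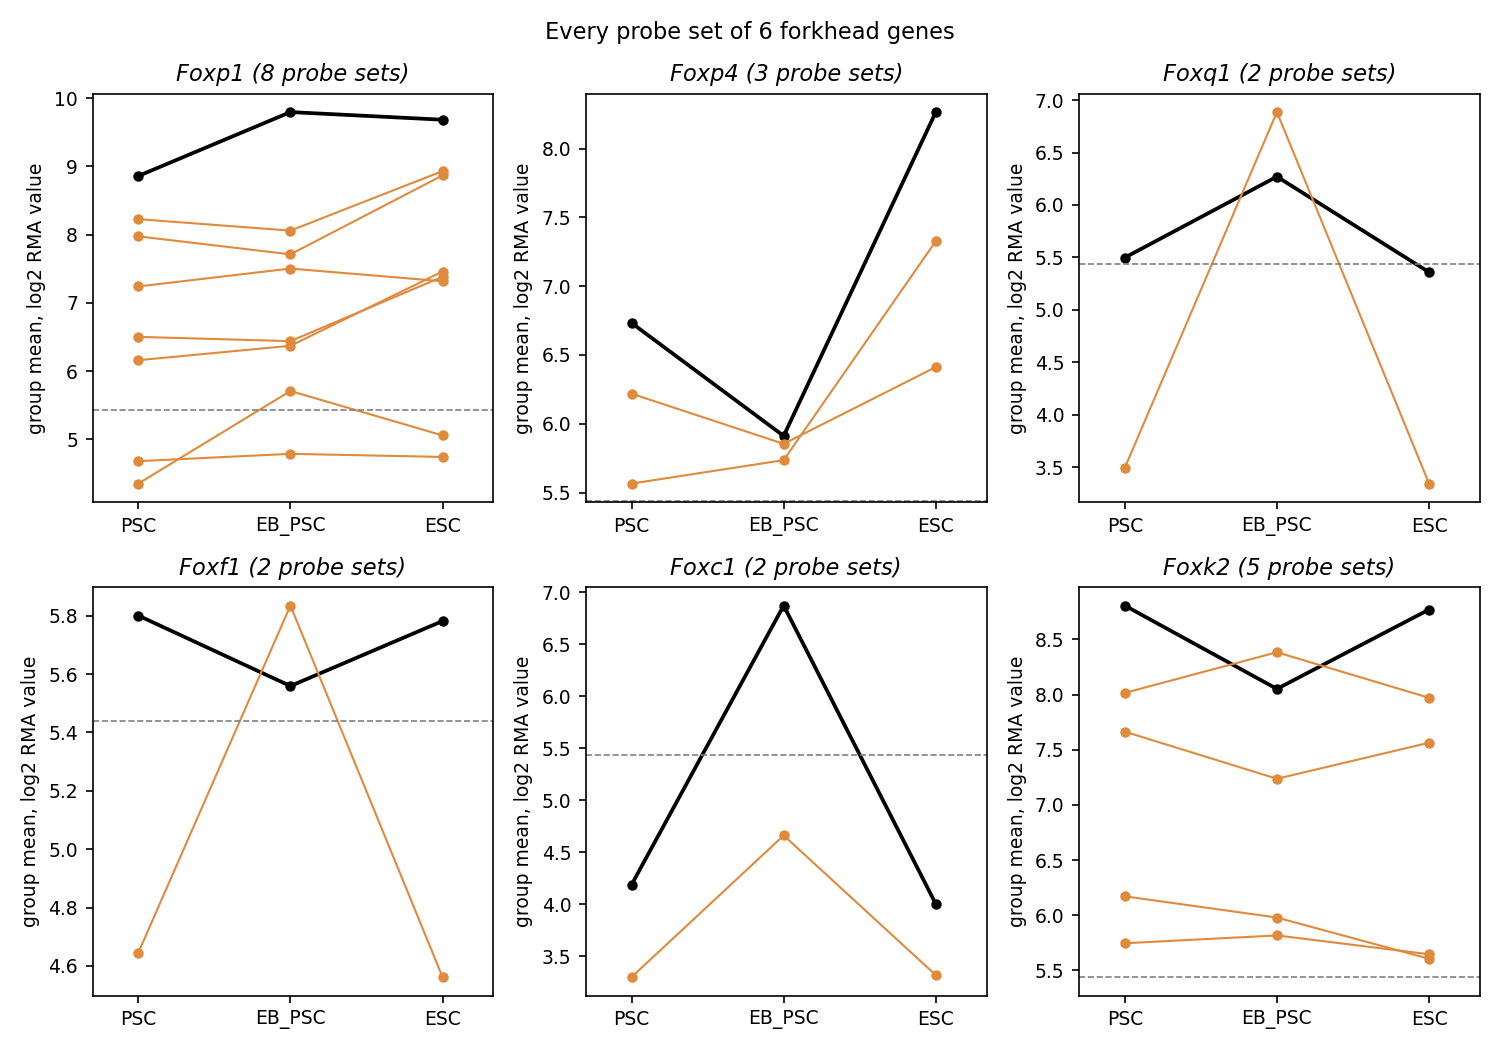
Group means in log2 units of every probe set of 6 forkhead genes, with the probe set used for the gene in black, the others in orange, and the dim limit as a dashed line; lines only join the means of 1 probe set. The sets of Foxc1 share 1 shape, those of Foxf1 do not, and of the 8 sets of Foxp1 the black one and the one that starts lowest in PSC rise from PSC to EB_PSC.

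Foxm1, which drives genes of G2 and mitosis, read 7.39, 7.65 and 7.58 on the PSC arrays, 7.16 and 7.08 on the EB_PSC arrays and 7.91, 7.91 and 7.87 on the ESC arrays. The groups did not overlap, with ESC highest and EB_PSC lowest. The fall from PSC to embryoid bodies was -0.42 ± 0.12 (limma adjusted p = 0.0148), and the deficit of PSC against ESC -0.36 ± 0.11 (0.036). Both are small and near the threshold. The first was lost without PSC array 2 (adjusted p = 0.0547) and the second without any 1 of PSC arrays 1 or 3 or ESC arrays 1, 2 or 3 (0.0573 to 0.156). Without EB_PSC array 2 the first difference was -0.38. Cyclic loess ended the first as well (-0.26, adjusted p = 0.103), and the second was lost under cyclic loess (0.0555), repeated quantile normalization (0.0777) and the replicate block (0.0635). Of the 4 probe sets of Foxm1, 3 were called lower in embryoid bodies in either comparison and 2 in PSC against ESC. Another bright set had -0.83 for embryoid bodies against PSC (limma adjusted p = 0.000489 over all probe sets). Embryoid bodies were 1.71-fold below ESC (-0.78 ± 0.12, limma adjusted p = 0.000158), a call lost under the 2-fold threshold only. Of 21 measured mitotic targets, 14 fell and 0 rose in embryoid bodies against PSC, with a median of -1.03, led by the cyclin gene Ccnb2 (-1.69 ± 0.15), the checkpoint gene Bub1b (-1.59 ± 0.15) and the centrosome kinase gene Nek2 (-1.44 ± 0.14), with limma adjusted p of 1.1e-06, 1.46e-06 and 2.35e-06. Of all genes 25.2% fell and 18.8% rose, with a median of -0.09. Between PSC and ESC 7 targets were lower and 1 higher, with a median of -0.18. Of all genes 11.7% were lower and 9.07% higher there, with a median of 0.0064. Bub1b, Birc5 and Ube2c were lower by -0.98 ± 0.13, -0.79 ± 0.11 and -0.78 ± 0.15 (limma adjusted p = 0.000203, 0.000185 and 0.00262), and Cenpf, a kinetochore gene, was higher by 0.69 ± 0.11 (0.000589).

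Among the Foxj genes, Foxj3 read 9.69, 9.77 and 9.67 on the PSC arrays, 9.80 and 9.49 on the EB_PSC arrays and 9.01, 9.23 and 9.23 on the ESC arrays. PSC and EB_PSC arrays were all above the ESC arrays. PSC were 1.46-fold above ESC (0.55 ± 0.12, limma adjusted p = 0.0058) and embryoid bodies 1.40-fold (0.49 ± 0.14, 0.00907). The second difference was 0.34 without EB_PSC array 1. A second probe set of Foxj3 was called lower in embryoid bodies than in ESC (-0.57, limma adjusted p = 0.0022 over all probe sets). Of the 3 probe sets 1 was called between PSC and ESC, and their mean gave 0.22 for PSC and -0.054 for embryoid bodies against ESC (limma adjusted p = 0.107 and 0.703), with both calls lost. Foxj2 read 6.95, 6.82 and 6.89 on the PSC arrays, 7.19 and 7.42 on the EB_PSC arrays and 6.80, 6.59 and 6.79 on the ESC arrays. It was 1.34-fold higher in embryoid bodies than in PSC (0.42 ± 0.13, limma adjusted p = 0.0178), a call lost without PSC array 2 (0.39, 0.0561). Without EB_PSC array 2 the difference was 0.30. Against ESC the difference of embryoid bodies was 0.58 ± 0.13 (limma adjusted p = 0.00232). The other, dim probe set of Foxj2 had -0.09 and -0.08 in these comparisons, and the mean of both sets gave 0.17 and 0.25 (limma adjusted p = 0.233 and 0.0781), so that both calls were lost.

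Foxj1, the master factor of motile cilia, was dim in every group and higher in PSC than in ESC by 0.42 ± 0.12 (limma adjusted p = 0.0217), a call lost without PSC array 2 (0.33, 0.102) or ESC array 1 (0.40, 0.0581). Between PSC and ESC 9.07% of all genes were higher and 11.7% lower. Of 25 measured genes of the motile cilium 1 was higher and 1 lower. They were Ccdc39, a factor for axoneme assembly (0.88 ± 0.21, limma adjusted p = 0.00881), and Tekt1, a tektin (-1.12 ± 0.15, 0.000139). Of all genes 18.8% were higher and 25.2% lower in embryoid bodies than in PSC. In the cilium list 2 were higher and 8 lower, with a median of -0.34 and 17 of the 25 genes dim. The largest falls were Rfx2 (-1.50 ± 0.23, limma adjusted p = 0.000123), Ccdc40 (-1.38 ± 0.19, 3.75e-05) and Tppp3 (-1.25 ± 0.16, 2.21e-05). The multiciliated cell list averaged 4.98 and 5.10 in EB_PSC, 5.59 to 5.76 in PSC and 5.40 to 5.61 in ESC. Its members are Foxj1 itself and genes of the motile cilium list, so it is no separate observation.

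The Foxn genes went in different directions. Foxn4, which specifies amacrine and horizontal cells of the retina and spinal interneurons, read 7.92, 7.96 and 7.72 on the PSC arrays, 6.52 and 7.04 on the EB_PSC arrays and 7.39, 7.43 and 7.43 on the ESC arrays. The 3 groups did not overlap, with PSC highest and EB_PSC lowest. It fell 2.12-fold from PSC to embryoid bodies (-1.09 ± 0.15, limma adjusted p = 6e-05), the largest fall of the family in that comparison. Against ESC, PSC were higher by 0.45 ± 0.14 (limma adjusted p = 0.0334), lost without any 1 of PSC arrays 1 or 2 or ESC arrays 1, 2 or 3 (0.40 to 0.46, adjusted p between 0.0527 and 0.124). Embryoid bodies differed from ESC by -0.64 ± 0.15 (limma adjusted p = 0.0037), and by -0.38 without EB_PSC array 1. The neural list gave 3 higher and 4 lower of 10 in embryoid bodies against PSC, beside 18.8% and 25.2% of all genes.

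Foxn2 read 9.41, 8.80 and 9.43 on the PSC arrays, 9.13 and 9.20 on the EB_PSC arrays and 9.89, 9.93 and 9.86 on the ESC arrays. The ESC arrays lay within 0.06 of each other and above the rest, while PSC array 2 was the lowest. PSC were 1.60-fold below ESC (-0.68 ± 0.15, limma adjusted p = 0.00688), and embryoid bodies 1.65-fold below ESC (0.0033). Its second, dim probe set had -0.11 for PSC against ESC and was not called, and the mean of both gave -0.39 (limma adjusted p = 0.0502). Cyclic loess moved the embryoid body difference from -0.73 to -0.46 (0.0434). Foxn3, a repressor tied to cell cycle checkpoints, read 9.28, 9.07 and 9.02 on the PSC arrays, 9.42 and 9.65 on the EB_PSC arrays and 8.60, 8.71 and 8.85 on the ESC arrays. The order was EB_PSC, PSC and ESC from high to low, with no overlap. Embryoid bodies were 1.76-fold above ESC (0.82 ± 0.14, limma adjusted p = 0.000241). The steps in between were 0.41 ± 0.14 from PSC to embryoid bodies (0.028 by the same test) and 0.41 ± 0.12 from ESC to PSC (0.032). The first step was lost without PSC arrays 2 or 3 (0.38 and 0.36, adjusted p = 0.0778 and 0.088), and was 0.29 without EB_PSC array 2. The second was lost without PSC arrays 1 or 2 or ESC arrays 1 or 2 (0.33 to 0.43, adjusted p between 0.0539 and 0.142). With the replicate number as a block neither step was called (adjusted p = 0.0543 and 0.0541), and the mean of the 4 probe sets gave 0.17 (0.216) for the first and 0.48 (0.00204) between embryoid bodies and ESC.

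The 14 genes called in no comparison comprised 6 above the dim limit in at least 1 group (Foxb2, Foxe3, Foxf1, Foxk1, Foxl1, Foxl2) and 8 dim throughout. Foxe3, the lens factor, had group means of 5.64 to 5.72, and Foxl1, a gene of gut mesenchyme, 5.24 to 5.51. In PSC against ESC the 25 uncalled members had differences from -0.36 to 0.78, and their 95% intervals reached from -0.65 to 1.36. In embryoid bodies against PSC 21 were uncalled, from -0.33 to 0.36, with intervals from -0.68 to 1.01.

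**Figure D5:**
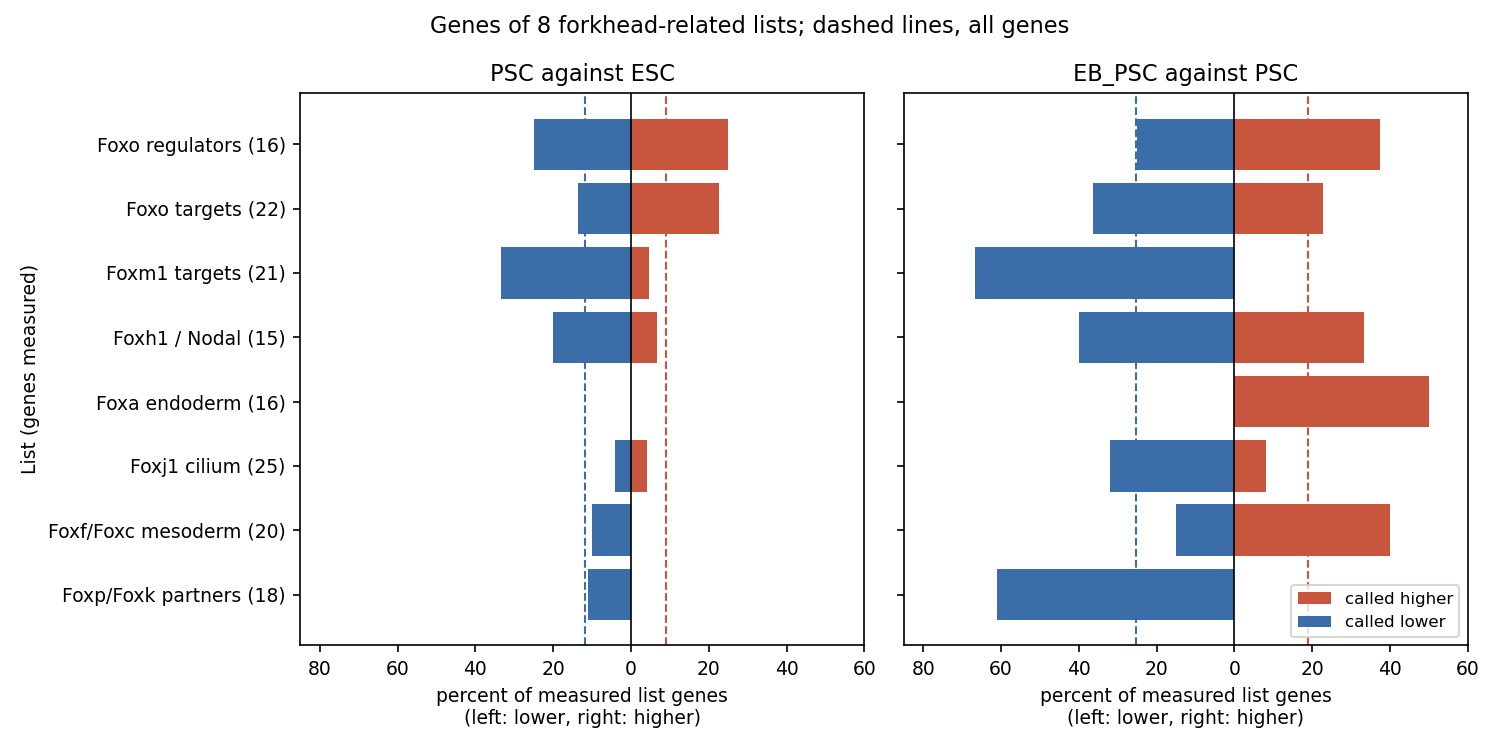
Bars give the percent of measured genes of 8 lists tied to forkhead factors that were called higher (red, right) or lower (blue, left) in PSC against ESC and in EB_PSC against PSC, with the same percents over all genes as dashed lines. In embryoid bodies the Foxm1 target and Foxp/Foxk partner lists have bars to the left only and the Foxa list to the right only.

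Some forkhead genes are neighbours in the mouse genome. On chromosome 13 Foxq1, Foxf2 and Foxc1 follow each other with 0 protein-coding genes between them. In embryoid bodies against PSC Foxq1 and Foxc1 rose by 0.77 and 2.68, and Foxf2 between them had a difference of 0.30 (limma adjusted p = 0.082; 0.34 and 0.0413 under cyclic loess). On chromosome 8 Foxf1, Foxc2 and Foxl1 lie together, with Mthfsd between the first pair. There Foxc2 rose by 1.34 and the flanking genes had -0.24 and -0.27 (limma adjusted p = 0.373 and 0.159). With the mean of its probe sets, given above, Foxf1 was called higher in this comparison, as Foxc2 was. Foxd2 and Foxe3, adjacent on chromosome 4, were not called in any of the 3 comparisons.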

How the data were processed

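Biotin-labelled total RNA of 8 samples was hybridised to 1-colour Affymetrix arrays. The authors deposited log2 values of 45101 probe sets, made with RMA per the submitters' processing notes; RMA's version, its settings and a joint normalization of the arrays are not stated there. That the scale is log2 was read from the values, which ran from 2.56 to 14.9 with array medians of 5.39 to 5.47. RMA levels the arrays' distributions, so a shift of most transcripts would not be visible. The number of arrays limits the precision.

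The platform annotation names a single gene for 34958 probe sets, more than 1 gene for 932 and no gene for 9211. Only the first kind was used, 1 per gene by the highest mean. The 37 forkhead genes, the lists and the rules were chosen with earlier results of these data known. All 37 matched RefSeq genes by identifier and no symbol differed. List symbols were matched directly or through a RefSeq synonym. No source used here gives a build for the arrays, so coordinates are those of the RefSeq windows.

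R 4.3.3 and limma 3.58.1 tested the differences (lmFit, contrasts, eBayes). One linear model covered all 8 arrays, with group as its term (5 residual and 8.07 prior degrees of freedom), two-sided, adjusted by Benjamini-Hochberg over 18194 genes and called below 0.05. Differences carry their standard error. Single probe sets were adjusted over all probe sets with 1 symbol. A member is given array by array where it was called at least once and reached 5.44 in a group; of a pathway list up to 3 called genes per direction and comparison are named, by size. The fit was tested on simulated data. Alternatives were removal of probe sets with a mean over all arrays below 5.44, 3 choices of probe set, and cyclic loess or repeated quantile normalization. Others were a fit of only the compared groups, array weights, a robust and trended prior and a 2-fold threshold. The replicate number was also used as a block, and each array was left out in turn. Promoter scans used Python 3.11.15 with pandas 2.3.3, and figures Matplotlib 3.10.9.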

Additional observations from a re-analysis of the deposited data

How the results depend on the processing

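Beside the 12, 16 and 21 forkhead genes called in PSC against ESC, EB_PSC against PSC and EB_PSC against ESC, requiring a difference of at least 1 log2 unit left 2, 5 and 8 (5.41%, 13.5% and 21.6% of the family against 3.02%, 16% and 18% of all genes). Leaving out genes with a mean over all 8 arrays below 5.44 left 21 members to test. Of these 12, 10 and 15 were called (57.1%, 47.6% and 71.4% against 32.4%, 59.3% and 61.4% of all genes tested). The members left out untested included Foxa1 and Foxc1, with EB_PSC means of 8.61 and 6.87. Leaving out 1 PSC or ESC array gave 7 to 11, 13 to 15 and 21 calls in the same order. Of all genes 13.7% to 22.8%, 38.4% to 40.2% and 40.5% to 45.6% were called in these fits. Fits without 1 EB_PSC array keep only 1 array of that group, and neither counts of calls nor p-values are given for them. The same-numbered arrays were not shown to be paired (correlations of deviations -0.25 to 0.22). With the number as a replicate block 10, 15 and 21 forkhead genes were called, beside 19.6%, 41.3% and 42.3% of all genes. Averaging the probe sets within each gene reversed Foxf1 in both embryoid body comparisons (0.47 against PSC and 0.53 against ESC), Foxj3 against ESC (-0.054) and Foxp1 against ESC (-0.38). Apart from the 2-fold threshold, 7 of 12, 7 of 16 and 5 of 21 calls were lost under some alternative, most of them with differences under 1. For the embryoid body comparisons the alternatives include the fits that keep 1 EB_PSC array. The cause of these losses was not tested, and fits with arrays or genes left out also had smaller numbers of them. Signal near background limits the 12 genes dim in all groups.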
